A study of Homo sapiens with 12 samples.

Results

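The transcripts of NRF2 and 8 of the genes it drives were followed across wild-type and PARP3-/- A549 cells with and without pyridostatin. The 9 genes were picked by name from the deposited table of 25365 gene names: NFE2L2 (which encodes NRF2), GCLC, GCLM, SLC7A11, TXNRD1, SRXN1, NQO1, HMOX1 and ME1. All 9 were found, and all 9 were among the 11881 genes that averaged 1 FPKM or more and entered the tests. FPKM relates the fragments of a gene to the length of its transcript and to the library's mapped reads.

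NRF2 is a transcription factor that turns on genes against oxidants and electrophiles. In unstressed cells KEAP1, an adaptor of the CUL3 ubiquitin ligase, holds NRF2 and sends it to the proteasome. When KEAP1 is modified by an electrophile, or is mutated, NRF2 accumulates, pairs with a small MAF protein and binds antioxidant response elements near its target genes. A549 is a lung adenocarcinoma line with mutated KEAP1, so NRF2 is active in it without any added stress. The targets make and recycle the thiols and the NADPH with which a cell reduces peroxides, and they detoxify quinones and heme.

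The 4 groups were wild-type A549 cells with vehicle (DMSO), PARP3-/- A549 cells with vehicle, and both genotypes with 1 μM pyridostatin, each treated for 24 h and each with 3 RNA-seq libraries. Pyridostatin is a small molecule that stabilizes G-quadruplex (G4) DNA, a fold of guanine-rich strands, and PARP3 is an ADP-ribosyltransferase with a role in DNA break repair. The study sequenced RNA to ask whether loss of PARP3 altered transcription in a way that could bear on the sensitivity of the cells to pyridostatin. The A549 deletion was made with Cas9 in the first exon of PARP3, and cells were cloned by dilution. The sources used here do not say how many clones gave these libraries, so the genotype and a difference between clones cannot be told apart. Nothing in the labels says whether same-numbered replicates were cultured together, and p-values measure the spread between these libraries.

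The core of the antioxidant response element has the letters TGACNNNGC, where N is any base. Promoter sequences of RefSeq (GRCh38.p14, from 250 bases before to 50 bases after each annotated start) were matched by symbol for 7 of the 9 members, with 9 starts among them, and no window of HMOX1 or SLC7A11 was used here. The letters were searched on both strands. They were found in 3 members, GCLM, TXNRD1 and ME1, in 4 of the 9 windows, against 13.3% of all 35116 windows. The matches are shown because these are the letters that NRF2 and its MAF partner read, each with 10 bases of flank, and capitals mark the 9 bases of the match:
GCLM, chr1:93909446-93909474, minus strand: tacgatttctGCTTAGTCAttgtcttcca
TXNRD1, chr12:104215670-104215698, plus strand: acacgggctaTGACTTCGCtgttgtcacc
TXNRD1, chr12:104215761-104215789, plus strand: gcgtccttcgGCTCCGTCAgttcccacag
TXNRD1, chr12:104286920-104286948, plus strand, second start: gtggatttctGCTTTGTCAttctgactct
ME1, chr6:83431170-83431198, minus strand: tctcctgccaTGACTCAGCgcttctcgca
ME1, chr6:83431022-83431050, minus strand: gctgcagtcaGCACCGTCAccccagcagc
Each is written on the strand of the gene, so a match that begins with GC reads TGACNNNGC on the opposite strand. The upstream ME1 match also holds the letters TGANTCA read by AP-1 factors, which occur in the window of 1 member and in 7.71% of all windows. A G4 motif (4 runs of at least 3 G with spacers of 1 to 7 bases, on either strand) was searched as well. It was found in 3 of the 9 windows, those of NQO1 and GCLM and 1 of NFE2L2, against 25% of all windows. Known NRF2 elements of several of these genes lie farther from the start than this window reaches.

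Across the 12 libraries the 9 transcripts were all well expressed, and because FPKM is per length their levels can be set side by side. NQO1, a quinone reductase, had a mean of 614 FPKM over the 12 libraries and ranked 127th of the 11881 tested genes. TXNRD1, thioredoxin reductase, followed with 393 FPKM, SRXN1, which repairs overoxidized peroxiredoxins, with 145 FPKM, and HMOX1, the inducible heme oxygenase, with 101 FPKM. The libraries of NQO1 and TXNRD1 did not overlap with those of any other member, whereas the highest wild-type HMOX1, at 135 FPKM, reached into the range of SRXN1, which began at 124 FPKM in libraries labelled PARP3-/-. The catalytic and modifier subunits of glutamate-cysteine ligase, GCLC (53.0 FPKM) and GCLM (48.4 FPKM), lay next and overlapped with each other. ME1, a cytosolic malic enzyme that makes NADPH, had 28.6 FPKM, NFE2L2 had 27.0 FPKM, and SLC7A11, the cystine importer, had 21.5 FPKM. The ranges of these last members overlapped, and SLC7A11, the lowest, still ranked 3644th.

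Depth was estimated from the steps between low FPKM values of 210 genes as about 21300000 to 30200000 reads per library, a 1.42-fold range, which put about 1600 to 2500 reads on NFE2L2 and about 35000 to 59000 on NQO1. The epithelial markers were all 6 expressed, with summed levels of 7218 to 8630 FPKM in wild-type libraries and 6912 to 7698 FPKM in libraries labelled PARP3-/-. The sum hides differences of single markers. Over both treatments limma called 3 of the 6 lower and 1 higher in libraries labelled PARP3-/- (adjusted p under 0.05), beside 6.95% and 12.2% of all tested genes. Mean KRT19 was 91.3 FPKM in wild type and 165 FPKM in the other genotype, and CDH1 was 15.2 against 10.7 FPKM. Of the fibroblast markers 1 of 5 passed 1 FPKM, with a summed level of 0.637 to 1.05 FPKM in wild type and 1.499 to 2.03 FPKM in libraries labelled PARP3-/-. Of the blood markers 1 of 5 passed (CD14) and 2 of 5 were at 0 throughout. The summed level of the 5 was 2.89 to 4.67 FPKM in wild type and 4.62 to 8.85 FPKM in the other genotype. CD14 alone was at 2.81 to 4.42 FPKM in wild type and 4.36 to 6.26 FPKM in the other genotype. None of 4 endothelial markers passed. The part of such transcripts in the genotype differences was not tested. PARP3 itself was not lower in the libraries labelled PARP3-/-, where it lay at 4.07 to 4.92 FPKM against 3.40 to 4.05 FPKM in wild type. Its difference over both treatments was 0.21 on the log2(FPKM + 1) scale (adjusted p = 0.0154), and a value over the whole gene does not test a deletion in its first exon. The direction of every genotype difference here therefore rests on the labels.

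Wild-type vehicle replicate 2 stood apart from the other libraries by transcript length. Against its own 2 companion replicates its genes were higher by a median of 0.20 (log2) where the transcript was at most 2 kb long and by 0.041 from 2 to 4 kb, and lower by 0.12 from 4 to 6 kb and by 0.24 above 6 kb. In the other 3 groups no library departed from its companions by more than a median of 0.057 in any of these length bins. Among the members HMOX1 (1822 bases), SRXN1 (2698 bases) and NQO1 (2912 bases) were 0.12 to 0.14 higher in this library, whereas TXNRD1 (4277 bases) was 0.23 lower, GCLM (4857 bases) 0.32 lower and SLC7A11 (9645 bases), the longest, 0.72 lower. NFE2L2 (2853 bases), ME1 (3371 bases) and GCLC (3813 bases) were lower by 0.13, 0.17 and 0.20 although genes of their length were slightly higher at the median, so length did not order all members. For each member a genotype value without this library is given as well. The library was singled out because it stood apart, and without it wild-type vehicle holds 2 libraries. Leaving it out also narrows the spread of the model, for example the SE of SLC7A11 with vehicle from 0.17 to 0.090. Calls gained in this way are therefore weaker evidence than their adjusted p-values alone would say.

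**Figure D1:**
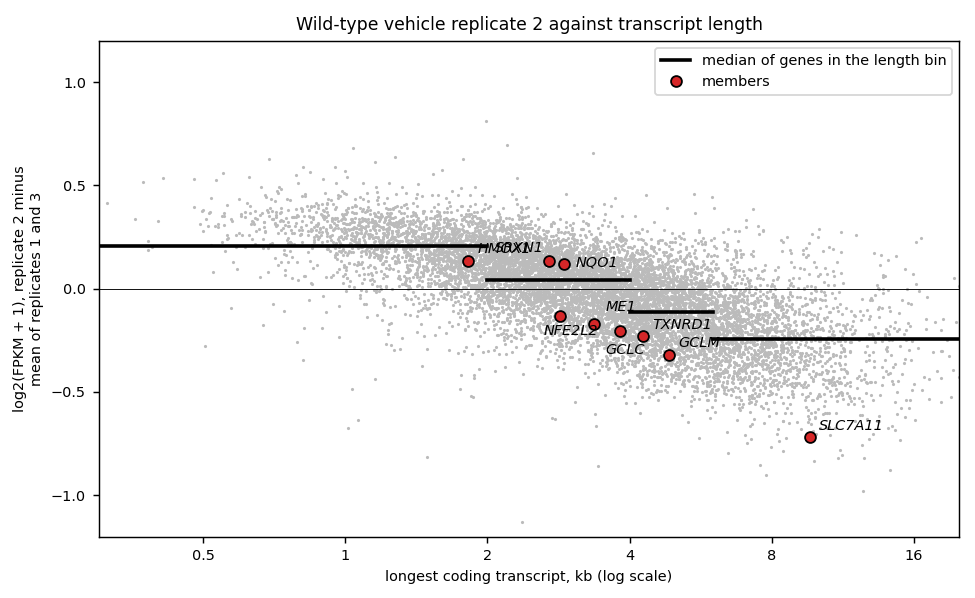
Difference in log2(FPKM + 1) between wild-type vehicle replicate 2 and the mean of replicates 1 and 3, against the longest coding transcript of each gene (log axis, kb); grey points are tested genes within the plotted range, black bars are medians of the 4 length bins, and red points are the 9 members. The medians step down from 0.20 to -0.24 with length, and SLC7A11 lies lowest of the members at -0.72.

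Over both treatments, 8 of the 9 members were lower in the libraries labelled PARP3-/- than in wild type and none was higher, by limma on log2(FPKM + 1) with a Benjamini-Hochberg adjusted p under 0.05. Among all tested genes 6.95% were called lower and 12.2% higher in this comparison, and among the 3859 genes that averaged 20 FPKM or more, as each member did, 10.8% were called lower. The balance of all called genes moved with the scaling, from 1449 higher and 826 lower to 1235 and 1133 after quantile normalization and to 1055 and 1253 after a shift to a common median. The median difference of the members was -0.27 against 0.011 over all tested genes. In these bulk libraries fewer cells that express a gene and less RNA per cell cannot be told apart. None passed the absolute log2 fold change of 1 that the study also asked for, and HMOX1 came nearest. In 5 members, HMOX1, NQO1, SRXN1, ME1 and NFE2L2, all 6 libraries labelled PARP3-/- lay below all 6 wild-type libraries, which 3.11% of all tested genes did.

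**Figure D2:**
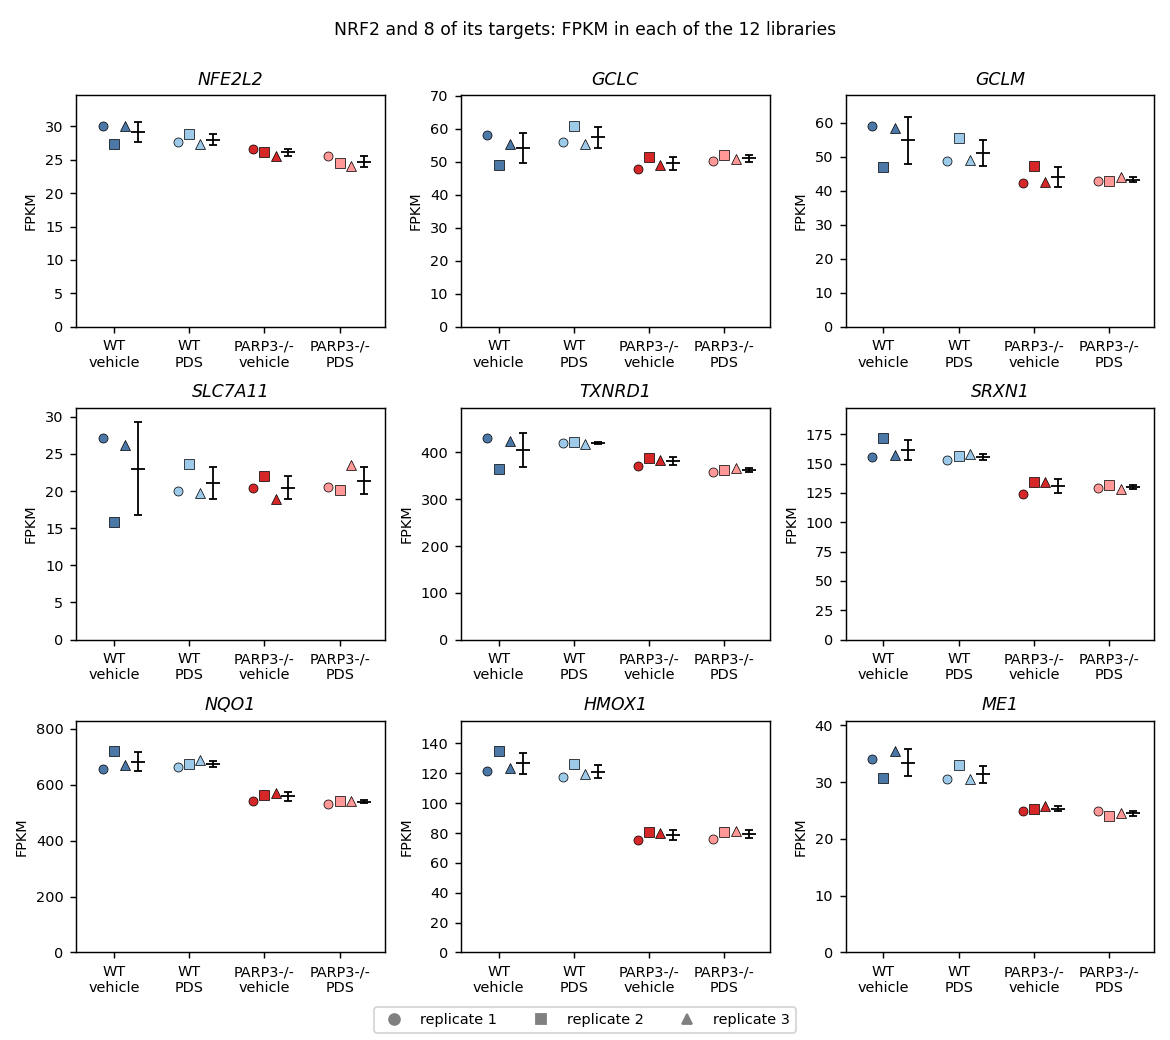
FPKM of NFE2L2 and its 8 targets in each library (vertical axes start at 0); the groups on the horizontal axes are wild type (WT) and PARP3-/- with vehicle or pyridostatin (PDS), marker shapes give the replicate, and black bars give the mean and SD of 3 libraries. HMOX1 shows the widest gap, 117 to 135 FPKM in wild type against 75.0 to 81.2 FPKM in PARP3-/-, and wild-type vehicle replicate 2 lies apart in SLC7A11.

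NFE2L2, the transcript of NRF2 itself, was slightly lower. With vehicle it was at 30.1, 27.4 and 30.0 FPKM in wild type and at 26.6, 26.2 and 25.6 FPKM in libraries labelled PARP3-/-. With pyridostatin it was at 27.7, 28.9 and 27.3 FPKM in wild type and at 25.6, 24.5 and 24.1 FPKM in libraries labelled PARP3-/-. The lowest wild-type library, at 27.3 FPKM, was thus above the highest of the other genotype, at 26.6 FPKM. Over both treatments the log2 difference was -0.16 ± 0.031 (SE, 6 against 6 libraries; adjusted p = 0.00381). With pyridostatin alone it was called (-0.17, adjusted p = 0.0299), and with vehicle alone it was not (-0.15, adjusted p = 0.0541). Of 21 alternative fits 3 called it with vehicle. Among these were the fit without wild-type vehicle replicate 2 (-0.20, adjusted p = 0.00561) and that with each library's length trend removed (-0.17, adjusted p = 0.0258). The call with pyridostatin was lost when any wild-type pyridostatin library or PARP3-/- pyridostatin replicate 2 or 3 was left out. AGPS, a coding gene, overlaps NFE2L2 on the opposite strand, and whether reads were counted by strand is not known.

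The members for glutathione synthesis gave the least even picture. GCLC and GCLM form the enzyme that sets the rate of glutathione synthesis, and SLC7A11 brings in the cystine from which its cysteine comes. GCLC was at 58.1, 49.2 and 55.4 FPKM in wild type and at 47.9, 51.5 and 49.1 FPKM in libraries labelled PARP3-/- with vehicle, and at 55.8, 61.0 and 55.3 FPKM against 50.2, 52.0 and 50.8 FPKM with pyridostatin. Its groups overlapped with vehicle, where wild-type replicate 2 was the low one, and did not overlap with pyridostatin. Over both treatments GCLC was 9.96% lower, with a log2 difference of -0.15 ± 0.043 (SE; adjusted p = 0.0365). This call was lost in 11 of 20 alternative fits, among them 9 of the 12 that left out 1 library (differences of -0.12 to -0.18 over the 20 fits, highest adjusted p = 0.082). Without wild-type vehicle replicate 2 it was -0.18 over both treatments (adjusted p = 0.00277), and GCLC was then also called with vehicle (-0.19, adjusted p = 0.0257) and with pyridostatin (-0.17, adjusted p = 0.0249).

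GCLM differed more than its partner. It was at 59.2, 47.0 and 58.5 FPKM in wild type and at 42.3, 47.4 and 42.5 FPKM in libraries labelled PARP3-/- with vehicle, and at 48.9, 55.5 and 49.0 FPKM against 42.8, 42.9 and 44.1 FPKM with pyridostatin. Only wild-type vehicle replicate 2 and PARP3-/- vehicle replicate 2 overlapped. Over both treatments GCLM was 17.6% lower, with a log2 difference of -0.27 ± 0.061 (SE; adjusted p = 0.0102), and without wild-type vehicle replicate 2 the difference was -0.32 (adjusted p = 0.000413).

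SLC7A11 was the member without a genotype call over both treatments. It was at 27.1, 15.8 and 26.1 FPKM in wild type and at 20.4, 22.0 and 19.0 FPKM in libraries labelled PARP3-/- with vehicle, and at 20.1, 23.6 and 19.7 FPKM against 20.5, 20.1 and 23.5 FPKM with pyridostatin. With vehicle both the highest and the lowest values were wild type, and with pyridostatin the genotypes were interleaved. The log2 difference over both treatments was -0.054 ± 0.12 (SE; adjusted p = 0.812), and its 95% interval of -0.31 to 0.21 was the widest of the members. Without wild-type vehicle replicate 2 it was called lower with vehicle (-0.37, adjusted p = 0.0264), was 0.018 with pyridostatin (adjusted p = 0.908), and over both treatments was -0.17 (adjusted p = 0.0611). The test of whether these 2 genotype differences of SLC7A11 were unequal did not pass with that library left out (0.38 ± 0.12, SE; adjusted p = 0.501). Once each library's trend with transcript length was removed, a step chosen after the data were seen, SLC7A11 with vehicle was at -0.17 (adjusted p = 0.324).

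Both thioredoxin system members were lower. TXNRD1 reduces thioredoxin with NADPH, and its levels were 430.1, 364 and 424 FPKM in wild type and 372, 388 and 384 FPKM in libraries labelled PARP3-/- with vehicle. With pyridostatin they were 421, 422 and 417 FPKM against 359, 363 and 366 FPKM, so the pyridostatin groups were apart and the vehicle groups overlapped through wild-type replicate 2. TXNRD1 was not called with vehicle (-0.085, adjusted p = 0.445), was called with pyridostatin (-0.21, adjusted p = 0.038) and over both was 9.88% lower (-0.15 ± 0.040, SE; adjusted p = 0.0253). The call with pyridostatin was lost in 12 of 21 alternative fits, and that over both treatments in 7 of 20, 6 of which left out 1 library. EID3, another coding gene, lies within TXNRD1 on the same strand. Without wild-type vehicle replicate 2 TXNRD1 gained a call with vehicle (-0.16, adjusted p = 0.00371) and was called with pyridostatin (-0.21, adjusted p = 0.000329).

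SRXN1 reduces the sulfinic acid form of peroxiredoxins. It was at 156, 172 and 157 FPKM in wild type and at 124, 134 and 134 FPKM in libraries labelled PARP3-/- with vehicle, and at 153, 156 and 158 FPKM against 129, 132 and 128 FPKM with pyridostatin. All wild-type libraries were above all others. SRXN1 was 17.8% lower over both treatments, with a log2 difference of -0.28 ± 0.032 (SE; adjusted p = 0.000121), and it was called with vehicle (-0.30, adjusted p = 0.00172) and with pyridostatin (-0.26, adjusted p = 0.00392). Without wild-type vehicle replicate 2 it was at -0.26 over both treatments (adjusted p = 6.24e-05). Another annotated coding gene, AL121758.1, overlaps SRXN1 on the same strand, so reads of the pair may not be told apart.

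NQO1 uses NADPH to reduce quinones and is a common readout of NRF2. It was at 656, 720.0 and 671 FPKM in wild type and at 541, 564 and 569.9 FPKM in libraries labelled PARP3-/- with vehicle, and at 665, 674 and 687 FPKM against 532, 543 and 543 FPKM with pyridostatin. The lowest wild-type library, at 656 FPKM, was above the highest of the other genotype, at 569.9 FPKM. NQO1 was 19.2% lower over both treatments (-0.31 ± 0.030, SE; adjusted p = 4.04e-05), and it was called with vehicle (-0.29, adjusted p = 0.0015) and with pyridostatin (-0.32, adjusted p = 0.000655). When only the 6 vehicle libraries were fitted the same difference had an adjusted p of 0.0546. Without wild-type vehicle replicate 2 it was -0.25 with vehicle (adjusted p = 0.000837) and -0.29 over both treatments (adjusted p = 1.03e-05).

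ME1 turns malate into pyruvate and yields NADPH in the cytosol. It was at 34.0, 30.8 and 35.4 FPKM in wild type and at 24.9, 25.2 and 25.8 FPKM in libraries labelled PARP3-/- with vehicle, and at 30.6, 33.0 and 30.5 FPKM against 24.9, 23.9 and 24.6 FPKM with pyridostatin. The genotypes were apart in each treatment. Over both treatments ME1 was 23.1% lower, the second largest difference of the members on the log2 scale (-0.36 ± 0.036, SE; adjusted p = 4.42e-05), with -0.39 for vehicle (adjusted p = 0.000781) and -0.34 for pyridostatin (adjusted p = 0.00152). Without wild-type vehicle replicate 2 it was -0.44 with vehicle (adjusted p = 9.37e-05) and -0.39 over both treatments (adjusted p = 6.07e-06).

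HMOX1 opens the ring of heme and releases iron, and it differed most between the genotypes. It was at 121, 135 and 124 FPKM in wild type and at 75.0, 80.7 and 80.1 FPKM in libraries labelled PARP3-/- with vehicle, and at 117, 126 and 120 FPKM against 76.1, 80.7 and 81.2 FPKM with pyridostatin. The highest library labelled PARP3-/-, at 81.2 FPKM, was far below the lowest wild-type library, at 117 FPKM. HMOX1 was 36.2% lower over both treatments, with a log2 difference of -0.64 ± 0.035 (SE; 95% interval -0.72 to -0.56; adjusted p = 4.84e-07). The difference was -0.68 with vehicle (adjusted p = 9.54e-06) and -0.60 with pyridostatin (adjusted p = 2.28e-05), and without wild-type vehicle replicate 2 it was -0.62 over both (adjusted p = 6.07e-07).

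Taken by treatment, 4 members were called lower with vehicle (NQO1, SRXN1, HMOX1 and ME1) and 6 with pyridostatin (these and TXNRD1 and NFE2L2), and none was called higher in either. Among all tested genes 3.01% were called lower and 6.4% higher with vehicle, and 3.85% lower and 7.07% higher with pyridostatin. With wild-type vehicle replicate 2 left out, all 9 were called lower with vehicle, where 2 wild-type libraries then remained. With pyridostatin, where the library itself does not enter the difference but does enter the spread, 8 were called. After each library's length trend was removed 8 of 9 were called lower with vehicle. The comparisons share the spread of a single model, and the count over both treatments rests on the same libraries as the other 2 counts.

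No member passed the test for a response to pyridostatin. In wild type, in PARP3-/- and over both genotypes none of the 9 members was called, and none had an unadjusted p under 0.05 in any of the 3 comparisons. Among all tested genes 2.79% were called higher and 1.38% lower in wild type, 3.05% higher and 2.52% lower in libraries labelled PARP3-/-, and 7.71% higher and 6.24% lower over both genotypes. The members' differences over both genotypes ran from -0.067 for NFE2L2 (adjusted p = 0.181) to 0.062 for GCLC (adjusted p = 0.375), with a median of -0.031. The 95% intervals limit how large a response could have gone unseen. For NQO1 the interval was -0.098 to 0.035 and for HMOX1 -0.10 to 0.053, while for SLC7A11 it reached from -0.27 to 0.25. With wild-type vehicle replicate 2 left out, ME1 (-0.094, adjusted p = 0.0374) and NFE2L2 (-0.089, adjusted p = 0.0288) were called lower with pyridostatin over both genotypes.

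The test of whether the genotype difference depended on pyridostatin found none of the 9 members, with adjusted p-values of 0.999 and no unadjusted p under 0.05. No tested gene was called there (0%), while 521 of the 11881 had an unadjusted p under 0.05. The members' differences ranged from -0.13 for TXNRD1, whose 95% interval was -0.30 to 0.051, to 0.14 for SLC7A11, with an interval of -0.38 to 0.66. A call for TXNRD1 with pyridostatin and none with vehicle is therefore not shown to be a difference between treatments.

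**Figure D3:**
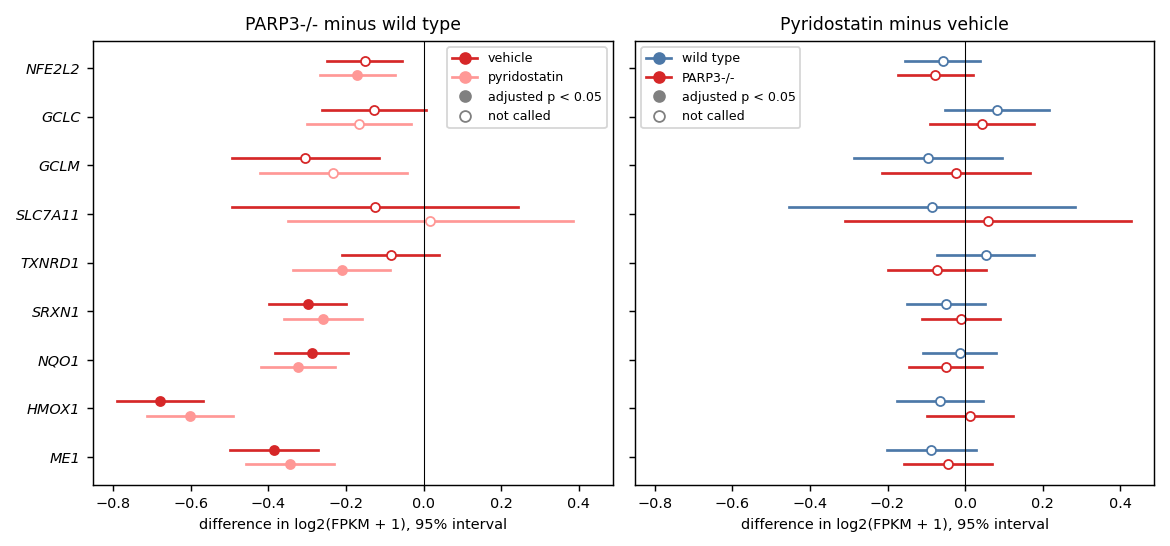
Differences in log2(FPKM + 1) of the 9 members with 95% intervals from limma; the left panel gives PARP3-/- minus wild type with vehicle and with pyridostatin, the right panel pyridostatin minus vehicle in each genotype, and filled points have an adjusted p under 0.05. HMOX1 lies farthest from 0 on the left, at -0.68 and -0.60, and no point on the right is filled.

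Of 13 genes for proteins that control NRF2 or are related to it, 3 were called lower and 1 higher in libraries labelled PARP3-/- over both treatments, beside 6.95% lower and 12.2% higher among all tested genes. The median of the 13 was 0.0066. KEAP1 had means of 35.2 ± 1.5 FPKM in wild type and 33.0 ± 1.6 FPKM in libraries labelled PARP3-/- (SD, n = 6) and was not called (-0.091, adjusted p = 0.104), although 3 of 20 alternative fits called it lower (common median, replicate block and length trend removed, lowest adjusted p = 0.0177). BACH1, a repressor that competes with NRF2 at HMOX1 and other targets, was at 3.57 ± 0.49 FPKM against 3.86 ± 0.14 FPKM (0.097, adjusted p = 0.392), and the MAF partner MAFG was at 23.7 against 23.9 FPKM (0.0066, adjusted p = 0.926, with a sign that changed with the scaling). SQSTM1, which binds KEAP1 and is itself an NRF2 target, was called lower (-0.12, adjusted p = 0.033), as were MAFK (-0.19) and CUL3 (-0.088). NFE2L3, a relative of NRF2, was higher by 0.53 (adjusted p = 8.16e-07), at 6.25 to 7.16 FPKM in wild type and 9.81 to 11.1 FPKM in libraries labelled PARP3-/-. Of these calls, that of NFE2L3 held in each alternative fit, and those of SQSTM1, MAFK and CUL3 did not.

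Beyond the 9 members, 59 further genes of NRF2-related function passed the filter on level, in 6 lists. Over both treatments 27 of them were called lower in libraries labelled PARP3-/-, 1 higher and 31 neither, with a median difference of -0.13 against 0.011 for all tested genes. The shares among all tested genes were 6.95% lower and 12.2% higher, and the counts of the lists by genotype below stand beside the same shares. The single higher call was that of ABCC3, an exporter of conjugates (0.13). Like the members, these lists were drawn up with earlier results of these data in view.

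The detoxification and export list had the most calls, 9 lower and 1 higher of 15. CYP4F11, a fatty acid hydroxylase, was at 2.65 to 3.39 FPKM in wild type and at 0.0548 to 0.117 FPKM in libraries labelled PARP3-/-, so its mean was 96.7% lower (-1.83 ± 0.053 on the log2(FPKM + 1) scale, SE; adjusted p = 4.26e-09). It was the only tested gene of these lists past an absolute log2 fold change of 1 on this scale, on which a pseudocount of 0.1 gave -3.94. GPX3, a secreted peroxidase of the glutathione list, and GSTM3 of the detoxification list stayed under the filter on level and differed in opposite directions. GPX3 was at 0.579 to 0.977 FPKM in the 6 wild-type libraries and listed at 0 in the 6 libraries labelled PARP3-/-. GSTM3 was at 0.490 to 0.820 FPKM in wild type and higher, at 0.852 to 1.13 FPKM, in the other genotype. Both were named after their values were seen and did not enter the main tests. The aldo-keto reductase AKR1B10, more abundant here than any member, was at 1958 to 2187 FPKM in wild type and at 1464 to 1595 FPKM in the other genotype (-0.42, adjusted p = 1.06e-05). The efflux pump ABCG2 was lower by a similar amount (-0.42, adjusted p = 2.31e-05), and AKR1C1 was at -0.38 (adjusted p = 0.000367), although reads of the near-identical AKR1C genes may be split between them.

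In the glutathione list 6 of 11 genes were called lower and none higher. The 4 largest differences were those of glutaredoxin GLRX (-0.37), the peroxidase GPX2 (-0.33), SLC3A2 (-0.32), which pairs with SLC7A11 in the cystine importer, and glutathione reductase GSR (-0.32), with adjusted p-values of 6.89e-05 to 0.00333. SLC3A2 also pairs with other transporters. In the thioredoxin list 2 of 8 were called lower, thioredoxin TXN (-0.19) and peroxiredoxin PRDX1 (-0.18). In the NADPH list 3 of 10 were called lower, namely PGD (-0.28) and TKT (-0.16) of the pentose phosphate pathway and IDH1 (-0.18).

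Beside HMOX1, 4 of 8 genes of heme and iron handling were called lower and none higher. The ferritin chains FTL (-0.40, adjusted p = 0.000549) and FTH1 (-0.32, adjusted p = 0.00281), which store the iron that heme breakdown releases, were among them, with the caution that both have many processed copies in the genome. The porphyrin transporter ABCB6 was at -0.34 and biliverdin reductase BLVRB at -0.23. After quantile normalization FTL was at -0.087 and not called (adjusted p = 0.423). TXN, PRDX1 and TKT kept their calls there at -0.10, -0.091 and -0.085. Quantile normalization gives each library the same values by rank, so it can itself shrink differences of very abundant transcripts. FTL was at 6005 to 9808 FPKM, and the part of this step in its value was not tested. Of 7 other NRF2 targets 3 were called lower, and these were OSGIN1 (-0.56, adjusted p = 5.01e-05), NR0B1 (-0.41) and PIR (-0.26), while the other 4 were not called and the list's median was -0.0055. OSGIN1 was at 33.9 to 41.1 FPKM in wild type and 20.7 to 25.4 FPKM in libraries labelled PARP3-/-.

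**Figure D4:**
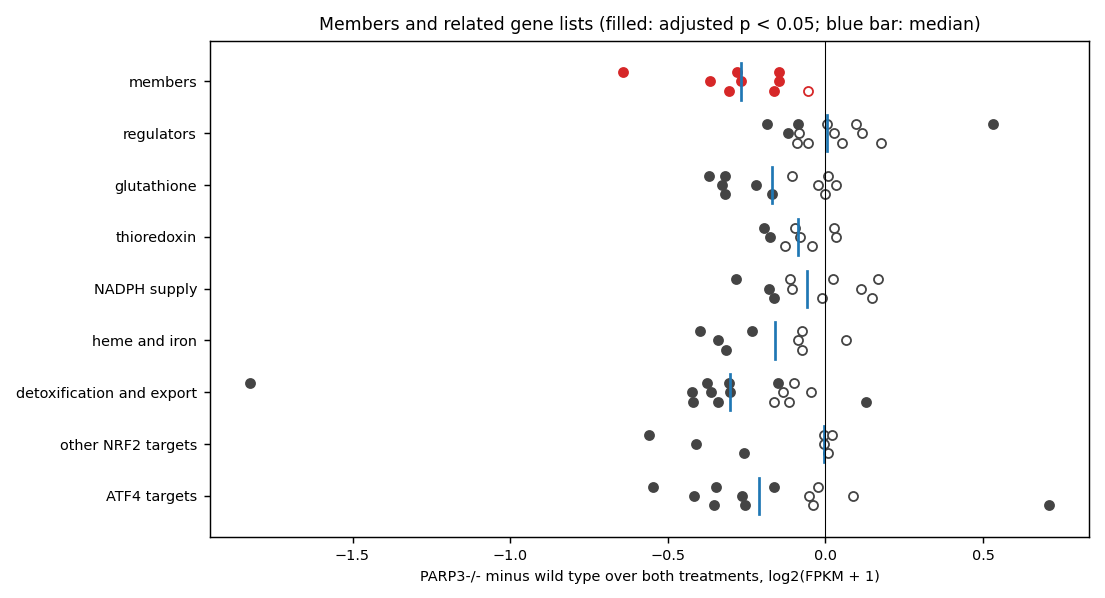
Difference between PARP3-/- and wild type over both treatments in log2(FPKM + 1) (horizontal axis) for the 9 members and each tested gene of the related lists; filled points have an adjusted p under 0.05 and blue bars are medians. The members' median is -0.27, CYP4F11 of the detoxification list lies at -1.83, and NFE2L3 and ATF3 lie to the right at 0.53 and 0.71.

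SLC7A11 is also driven by ATF4, the factor of the amino acid response, so 12 ATF4 genes were counted beside it. Over both treatments 7 were called lower in libraries labelled PARP3-/- and 1 higher, beside 6.95% and 12.2% of all tested genes. DDIT4 (-0.55), TRIB3 (-0.42) and the amino acid transporter SLC7A5 (-0.35) were the largest of the lower ones, and ATF3 was higher (0.71 ± 0.16, SE; adjusted p = 0.00861), at 3.75 to 10.1 FPKM in wild type and 5.23 to 14.9 FPKM in the other genotype. With pyridostatin over both genotypes 5 of the 12 were called lower and 2 higher, beside 6.24% and 7.71% of all tested genes. The stress sensor SESN2 was 91.1% higher (0.79 ± 0.041, SE; adjusted p = 4.3e-06) and ATF3 80.6% higher (0.82), whereas DDIT3 (-0.27) and ASNS (-0.20) were lower. The call of DDIT3 was lost in 10 of 20 alternative fits (highest adjusted p = 0.103), and those of SESN2, ATF3 and ASNS held in each. SLC7A11 itself was at -0.013 with pyridostatin (adjusted p = 0.955).

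Of the 59 related genes 4 were called higher and 7 lower with pyridostatin over both genotypes, where 7.71% of all tested genes were higher and 6.24% lower. The count was 1 higher and none lower in wild type alone, and none higher and 3 lower in libraries labelled PARP3-/- alone. Over both genotypes GGCT of glutathione turnover was lower (-0.23), and OPLAH (0.21) and glutathione synthetase GSS (0.12) were higher. CBR3 (-0.30), NQO2 (-0.19), PTGR1 (-0.12) and IDH1 (-0.12) were lower, as were TRIM16 (-0.16) and TRIM16L (-0.17), whose sequences are alike. ALDH3A1 (0.27) and ABHD4 (0.14) were higher. Among the regulators GSK3B, a kinase that marks NRF2 for degradation, was higher (0.18) and CUL3 was lower (-0.11). Of 20 alternative fits, 12 lost the call of GSS, 10 that of NQO2, 6 that of CBR3 and 1 that of IDH1. The calls of PTGR1, GSK3B and CUL3 were each lost in 9 of 20. Those of GGCT, OPLAH, ALDH3A1, TRIM16, TRIM16L and ABHD4 held in each alternative fit. The thioredoxin list and the heme and iron list had no call with pyridostatin over both genotypes.

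The promoter matches did not sort the members by the size of the genotype difference. GCLM, TXNRD1 and ME1, with the TGACNNNGC letters shown above, were at -0.27, -0.15 and -0.36 over both treatments, and the 4 members whose windows lack them, NFE2L2, GCLC, SRXN1 and NQO1, were at -0.16, -0.15, -0.28 and -0.31. With pyridostatin, the members with a G4 motif in a window were at -0.032 (NQO1), -0.060 (GCLM) and -0.067 (NFE2L2) over both genotypes, and the 4 without it in a window were at -0.066 (ME1), -0.031 (SRXN1), -0.0096 (TXNRD1) and 0.062 (GCLC). These are descriptions of 7 genes and were not tested.

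The genes whose pattern over the 12 libraries was closest to each of the 3 members with the largest genotype difference were found by the Euclidean distance between standardized profiles, where the median distance over all tested genes was 4.79 to 4.88. RTN4RL2 (distance 0.41) and SULT2B1 (0.44) were closest to HMOX1, and AKR1B10 (0.30) and SULT2B1 (0.41) to NQO1. CYP1B1 and NAMPT (both 0.62) were closest to ME1. In each of these genes the mean was lower in libraries labelled PARP3-/-, for example 6.93 against 18.1 FPKM for RTN4RL2 and 32.8 against 47.5 FPKM for NAMPT. That direction follows from choosing genes by nearness to members that were lower there, so it is not a separate result. AKR1B10 is itself on the detoxification list.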

How the data were processed

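Total RNA of 12 cultures of A549 cells was made into stranded mRNA libraries and sequenced as single-end 75-base reads. The authors deposited 1 table of FPKM values, 1 column per library and no column of another sample, which names Cufflinks. Their processing notes also list bcl2fastq 2.16, STAR 2.5 and the builds hg19 and mm9 without saying how each was used, and whether reads were counted by strand is not given in the sources used here. Of the 25365 rows 6033 are at 0 in all libraries. In FPKM, alignment, read assignment and scaling to length and depth are already fixed, and counts were not used here.

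Genes averaging 1 FPKM or more were tested on log2(FPKM + 1), a scale that understates changes of low genes. limma 3.58.1 (R 4.3.3) fitted 1 model of the 4 groups with a trended eBayes, in 7 contrasts: genotype with vehicle, with pyridostatin and over both, pyridostatin in each genotype and over both, and the interaction. Called means a Benjamini-Hochberg adjusted p under 0.05 over all 11881 genes. The fit was checked on simulated data: with vehicle, 54% of genes changed by 0.3 and 99% of those changed by 0.6 (log2) were recovered among 11881 genes, and over both treatments 86% and 100%. The changed genes, 100 per size, were drawn from genes of higher level and without the largest spread. Noise was independent and no library had a length trend, so these rates may not hold for the real libraries.

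The members and all gene lists were chosen with earlier results of these data known. The text names all members, PARP3, KEAP1, BACH1, MAFG and SQSTM1, up to 4 called genes per list with the largest differences in the pooled genotype and pyridostatin contrasts, and 2 like-patterned genes for each of 3 members. ABCC3, GPX3 and GSTM3 were named after their values were seen. Depth was estimated from low FPKM values and transcript lengths of GENCODE 29 (matched for 88.6% of tested genes), so it is approximate. Promoters came from RefSeq (GRCh38.p14). Alternatives were a pseudocount of 0.1, no filter or a filter at a mean of 5 FPKM, quantile normalization, a common median, no trend, only the libraries compared, the replicate number as a block, and each library left out. Removal of each library's lowess trend with transcript length (span 0.3) was added after the data were seen. Python 3.11.15, numpy 2.4.6, pandas 2.3.3 and matplotlib 3.10.9 were used.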

Additional observations from a re-analysis of the deposited data

How the results depend on the processing

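No value changed sign between a call and its counterpart in any of the alternative fits. Of 1055 values of members and named genes that were called in neither fit, 48 changed sign. Over both treatments the calls of HMOX1, NQO1, ME1, SRXN1, GCLM and NFE2L2 held in all 20 alternatives, and the members called ran from 6 to 8 when each library was left out in turn. With vehicle 8 members were called after the length trend was removed, and 4 to 9 without 1 library, the 9 without wild-type vehicle replicate 2. With pyridostatin over both genotypes 1 member (NFE2L2) was called after the shift to a common median, and 0 to 2 without 1 library, the 2 without wild-type vehicle replicate 2.

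Counts over all genes moved more. Fitting only the libraries compared gave 532 genes for genotype with vehicle (1118 in the main fit) and 65 for pyridostatin in wild type (495). Removing the length trend gave 759 for pyridostatin in wild type and 1033 in PARP3-/- (661). Without 1 library the counts were 806 to 2298 for genotype with pyridostatin (1297), 178 to 706 for pyridostatin in wild type and 254 to 1559 in PARP3-/-. The highest of each came without wild-type vehicle replicate 2. The lowest came without wild-type pyridostatin replicate 3, wild-type pyridostatin replicate 1 and PARP3-/- pyridostatin replicate 3. The interaction called 1 gene with a pseudocount of 0.1 and with no filter, and 0 to 1 without 1 library, and none of these was a member. The share of higher calls fell after the shift to a common median from 68% to 51.7% for genotype with vehicle, from 64.8% to 53.1% with pyridostatin, from 66.9% to 45.6% for pyridostatin in wild type and from 55.3% to 39.9% over both genotypes, and after quantile normalization to 57.8% for genotype with vehicle.

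Among the lists over both treatments, the NADPH list had 5 calls by genotype under the replicate block and 6 after the length trend was removed (3 in the main fit), and the regulators had 1 to 5 without 1 library (4). For pyridostatin the regulators had 4 calls after the common median and after the length trend was removed, and 0 to 4 without 1 library (2). The NADPH list had 2 with the filter at 5 FPKM, 0 after quantile normalization and 1 to 2 without 1 library (1). The heme and iron list had 1 with no filter (0), and without 1 library the detoxification list had 1 to 4 (4) and the ATF4 list 3 to 7 (7). The causes of these shifts were not tested.

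The replicate numbers were not shown to pair the samples: correlations of same-numbered deviations were 0.066 to 0.10 for genotype with vehicle, -0.021 to 0.056 with pyridostatin, -0.12 to 0.026 for pyridostatin in wild type and 0.060 to 0.22 in PARP3-/-, and 3, 1, 1 and 2 of 3 libraries correlated best with their own number. With the replicate number as a block 7 members were called over both treatments (without GCLC), 5 with pyridostatin (without TXNRD1) and 4 with vehicle. SLC7A11 had the widest interval of the members in the genotype comparison over both treatments.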
